A study of Mus musculus with 23 samples.

Results

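Synaptic vesicle and SNARE genes are the genes whose products store transmitter in vesicles and fuse those vesicles with the plasma membrane. They were described here in 23 single neurons of the mouse arcuate hypothalamus, a nucleus at the base of the brain that controls feeding. Members were taken by symbol alone: the numbered Syt, Stx, Vamp, Cplx and Stxbp genes, 5 Snap genes, Syn1 to Syn3, Rab3a to Rab3d, Unc13a to Unc13d, Sv2a to Sv2c, Syp, Nsf, Napa and Napb. This gave 71 of the 23400 genes in the table, and no measured level entered the choice.

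A vesicle is held near the release site by Rab3 GTPases and synapsins, and is primed by Munc13 proteins (Unc13 genes) and Munc18 proteins (Stxbp genes). It then fuses when a vesicle SNARE (synaptobrevin, a Vamp gene) zips together with a syntaxin (Stx) and a SNAP25-type SNARE (Snap) on the target membrane. Complexins clamp and activate this complex, synaptotagmins sense calcium, and Nsf with its SNAP adaptors (Napa, Napb) takes the complex apart after fusion. Related SNAREs carry the same kind of fusion to endosomes, the Golgi and the endoplasmic reticulum in every cell, so the families hold both synaptic and housekeeping members.

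The study concerned an excitatory pathway out of this nucleus to the paraventricular hypothalamus. All 23 samples belong to 1 group. They are GFP-positive cells picked by hand from vGLUT2-IRES-Cre::loxSTOPlox-L10-GFP mice, young adults of mixed background, in which Cre under the gene of the glutamate transporter vGLUT2 (Slc17a6) turns on a GFP fused to a ribosomal protein. The series text gives 2 male mice, and the labels do not tie a cell to a mouse. GFP marks cells that used this Cre at any time before capture, so it does not fix their transmitter at capture. Sample titles fall into 2 sets that the labels do not explain, of 15 cells (set 1, cells 1 to 15) and 8 cells (set 2, cells 16 to 23), and mouse, day and cell type cannot be told apart in them. Cells are not replicates and there is no control group, so the values are descriptions with no test.

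Levels are FPKM, in which a gene's fragments are divided by its length and by the library's mapped fragments, so genes of different length can be set side by side. A gene was counted in a cell at or above 1 FPKM. Lower values are given but not read as expression, because traces shared between libraries were not tested. The number of genes at this level was 4054 in cell 17 and between 6004 and 8042 in the other cells, with a median of 7090 over all cells. FPKM sums ran from 379513 to 687511, and relative sequencing depth spanned 4.21-fold; no absolute depth was derived. Of 10 pan-neuronal markers, 9 were counted in at least 12 cells and 6 in every cell. The exception was Rbfox3, counted in 5 cells, with a median of 0.346 and a highest level of 1.87 FPKM. Slc17a6 was counted in 22 cells, with a lowest level of 0.520, a median of 32.1 and a highest of 139 FPKM. Of 20 markers of other cells, 7 were counted in no cell (Aqp4, Aldh1l1, Slc1a3, Mog, Pdgfra, Cx3cr1 and Cldn5), against 36.3% of all genes. In at least 12 cells 2 were counted, against 27.8% of all genes: Vim and the haemoglobin gene Hba-a2. Reads of Hba-a2 cannot be told apart well from those of its near-identical copy Hba-a1. Others were counted in fewer cells, among them Mbp and Hba-a1 in 10 each and Mag and Pecam1 in 5 each. Gfap was counted in 3 cells, with 165 FPKM in cell 12. The summed level of this list without haemoglobin was lowest in cell 16 (1.16 FPKM) and highest in cell 12 (425 FPKM), and its part in the results was not tested.

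As a group these genes were widely detected. In at least 1 cell 62 of the 71 members (87.3%) were counted, against 63.7% of all 23400 genes. Of the 71 members, 39 (54.9%) were counted in at least 12 of 23 cells, against 27.8% of all genes. In every cell 18 members (25.4%) were counted, against 7.2% of all genes. In no cell 9 members (12.7%) were counted, against 36.3% of all genes. The median of the members' median levels was 2.51 FPKM, against 0.00953 FPKM over all genes. A median of 100 FPKM or more was reached by 9 members (12.7%), against 3.28% of all genes. They include Vamp2, Rab3a, Syt4, Syt5, Syt11, Napa, Nsf and Syp.

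**Figure D1:**
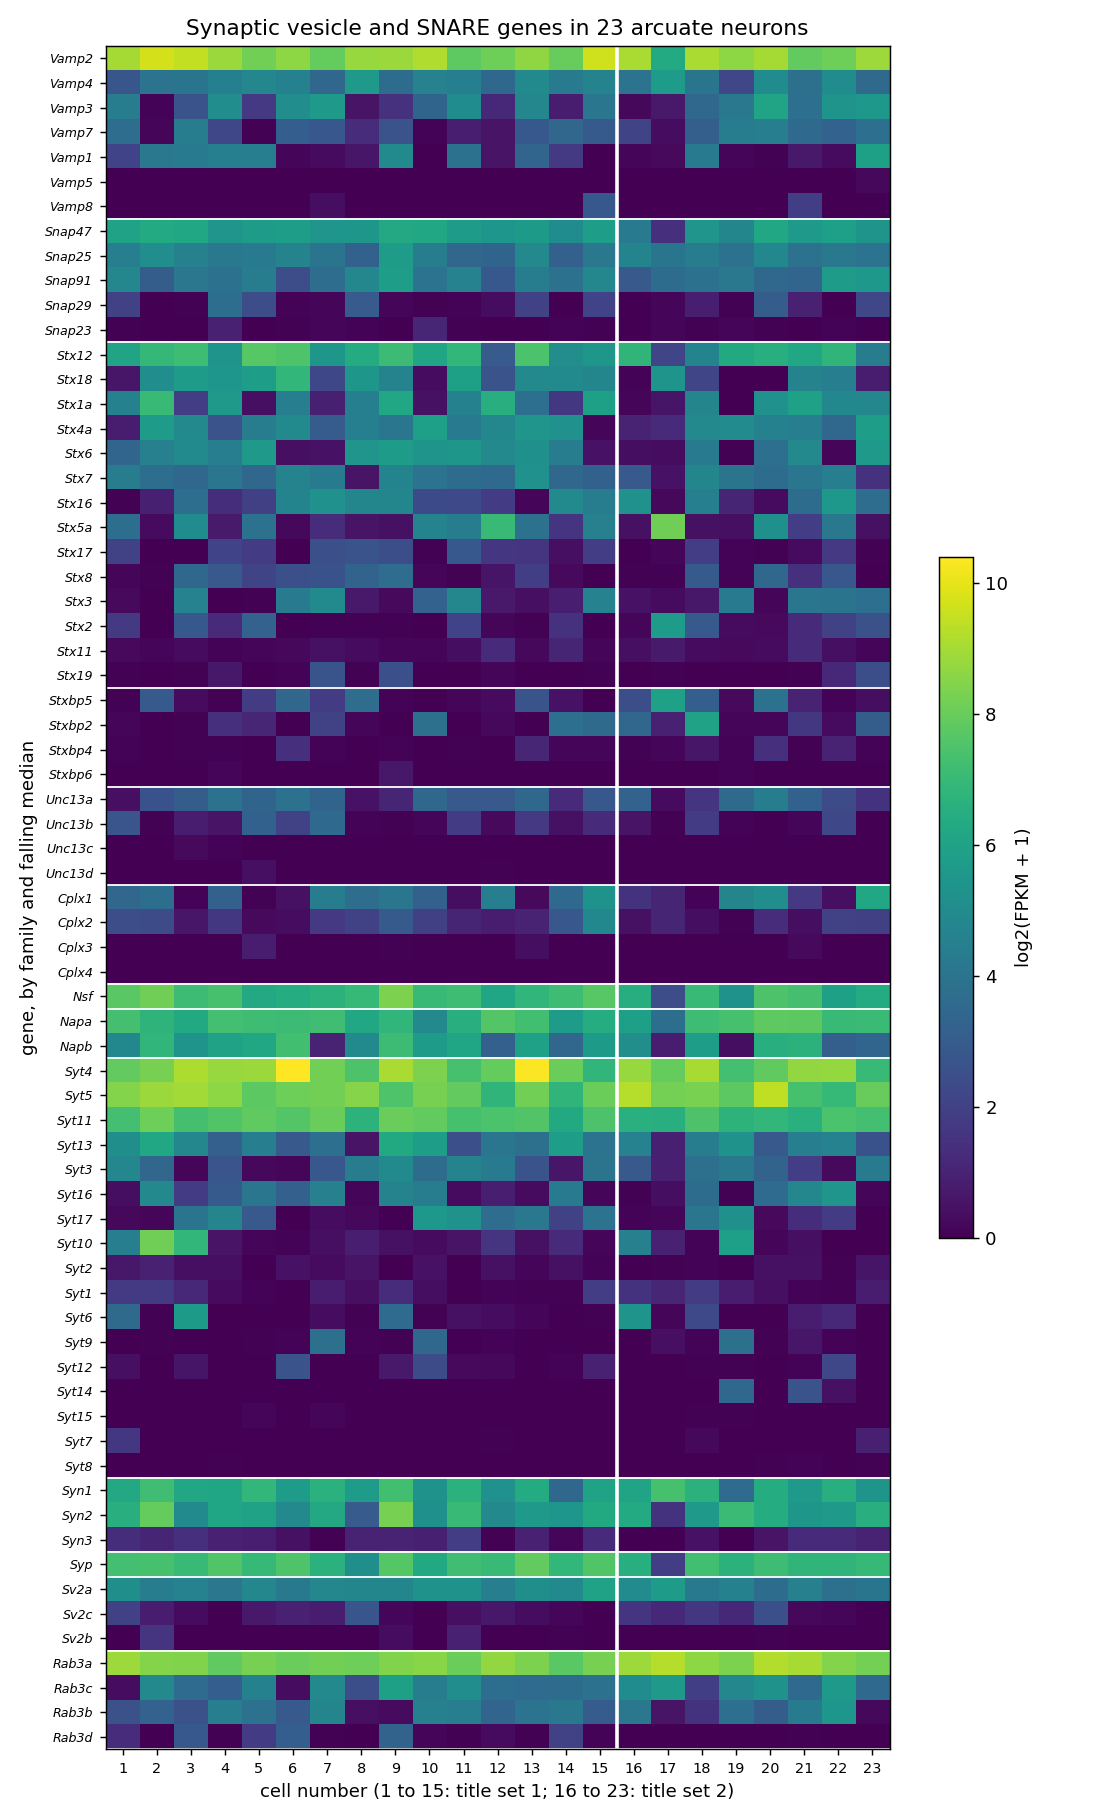
Level of the genes reported here (rows, grouped by family) in each of the 23 cells (columns), as log2(FPKM + 1), with a white line between title set 1 and title set 2. In most families 1 or a few rows are bright across most cells (Vamp2, Snap47, Stx12, Nsf, Syt4, Syp, Rab3a), while 9 rows stay below 1 FPKM in every cell. In cell 17, Snap47, Stx12, Nsf and Syp are dim, at 4.52 FPKM or less.

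Start-site sequences are shown for some genes whose detection differed plainly within a family, and for Syn1, whose promoter is widely used to drive neuronal expression from vectors. Other such pairs with a window, Snap47 and Snap23 among them, are not shown. Each is the 250 bases before the RefSeq transcription start on GRCm38.p6 (mm10), 5′ to 3′ on the gene's own strand, with CG dinucleotides in capitals. Sv2a, which encodes a vesicle glycoprotein and the binding site of the drug levetiracetam, was counted in 23 cells (chr3:96180977-96181226, plus strand), and its paralog Sv2b in 1 cell (chr7:75309263-75309512, minus strand). The endosomal syntaxin Stx12 was counted in 23 cells (chr4:132884459-132884708, minus strand), and Stx11, a syntaxin known from immune cells, in 3 cells (chr10:12964260-12964509, minus strand). Synapsin I, Syn1, was counted in 23 cells (chrX:20920919-20921168, minus strand).
Sv2a: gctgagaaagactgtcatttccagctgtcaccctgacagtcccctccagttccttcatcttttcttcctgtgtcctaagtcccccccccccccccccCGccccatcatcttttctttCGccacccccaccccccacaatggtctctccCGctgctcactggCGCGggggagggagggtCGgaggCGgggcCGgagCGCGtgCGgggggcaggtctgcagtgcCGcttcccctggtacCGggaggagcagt
Sv2b: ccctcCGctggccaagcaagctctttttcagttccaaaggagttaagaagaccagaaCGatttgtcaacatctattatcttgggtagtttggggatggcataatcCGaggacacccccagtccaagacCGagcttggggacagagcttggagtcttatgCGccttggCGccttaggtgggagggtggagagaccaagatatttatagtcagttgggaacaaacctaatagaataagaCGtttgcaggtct
Stx12: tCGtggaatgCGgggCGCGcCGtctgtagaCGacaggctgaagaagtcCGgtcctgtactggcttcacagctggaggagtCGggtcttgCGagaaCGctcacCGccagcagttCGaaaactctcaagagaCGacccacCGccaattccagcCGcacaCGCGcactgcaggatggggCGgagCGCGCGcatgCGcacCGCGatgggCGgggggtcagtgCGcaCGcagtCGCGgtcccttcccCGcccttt
Stx11: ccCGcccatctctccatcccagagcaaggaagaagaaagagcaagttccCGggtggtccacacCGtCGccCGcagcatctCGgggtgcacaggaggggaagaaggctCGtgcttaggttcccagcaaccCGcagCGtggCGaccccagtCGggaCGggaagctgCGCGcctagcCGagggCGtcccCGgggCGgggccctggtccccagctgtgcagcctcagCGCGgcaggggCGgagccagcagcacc
Syn1: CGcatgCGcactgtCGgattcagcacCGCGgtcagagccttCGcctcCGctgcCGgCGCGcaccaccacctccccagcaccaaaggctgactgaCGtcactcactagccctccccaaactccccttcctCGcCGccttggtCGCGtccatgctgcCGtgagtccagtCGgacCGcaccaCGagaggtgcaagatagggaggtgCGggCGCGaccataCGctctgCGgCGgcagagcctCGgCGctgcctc
These windows hold 13 CG dinucleotides in Sv2a, 7 in Sv2b, 30 in Stx12, 21 in Stx11 and 27 in Syn1, and the median over all 32851 RefSeq windows of this length is 6. The widely detected Stx12 and the rarely counted Stx11 are thus both rich in CG. Motifs were searched on both strands, each by itself and with overlaps counted. The TATA box letters TATAAA occur in 12.4% of all windows, and among these 5 in Sv2b only, where they occur 1 time. The GC box letters GGGCGG occur in 32.7% of all windows, and here 3 times each in Stx12 and Stx11 and 1 time in Sv2a. The cAMP response element, TGACGTCA, occurs in 1.55% of all windows, and here 1 time, in Syn1. A match describes letters only. Windows were found for 56 of the 71 members (78.9%), under the 80% needed, so a comparison of promoters over the members is void and none was made.

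Vesicle SNAREs were led by Vamp2, synaptobrevin 2, the vesicle SNARE of fast release in the forebrain. Vamp2 (chromosome 11, 69088528 to 69092381, plus strand, mm10) had a lowest level of 80.7 FPKM in cell 17, a median of 440 and a highest of 848 FPKM in cell 2. Of the 23400 genes, 185 had a higher median, the fewest for any member. It held 86.6% ± 8.40 (SD, 23 cells) of the family's summed FPKM and was its highest member in all 23 cells. Its paralog Vamp1, the synaptobrevin of spinal cord and brainstem motor synapses, was counted in 11 cells, with a median of 0.653 and a highest level of 58.6 FPKM in cell 23. No cell had Vamp1 above Vamp2.

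The other widely counted Vamp genes serve endosomal membranes. Vamp4, of the trans-Golgi network, was counted in all cells, between 3.70 and 51.0 FPKM with a median of 18.8. Vamp3, cellubrevin of recycling endosomes, was counted in 18 cells (median 12.9, highest 67.0 FPKM). Vamp7, of late endosomes and lysosomes, was counted in 17 cells (median 6.30, highest 21.03 FPKM); the table places it on an unplaced scaffold of the X chromosome. Both were near 0 in some cells and well above 10 FPKM in others, so they varied more than Vamp4. Vamp8, an endosomal SNARE, was counted in 2 cells with a highest level of 6.38 FPKM. Vamp5, known from muscle, was counted in none.

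**Figure D2:**
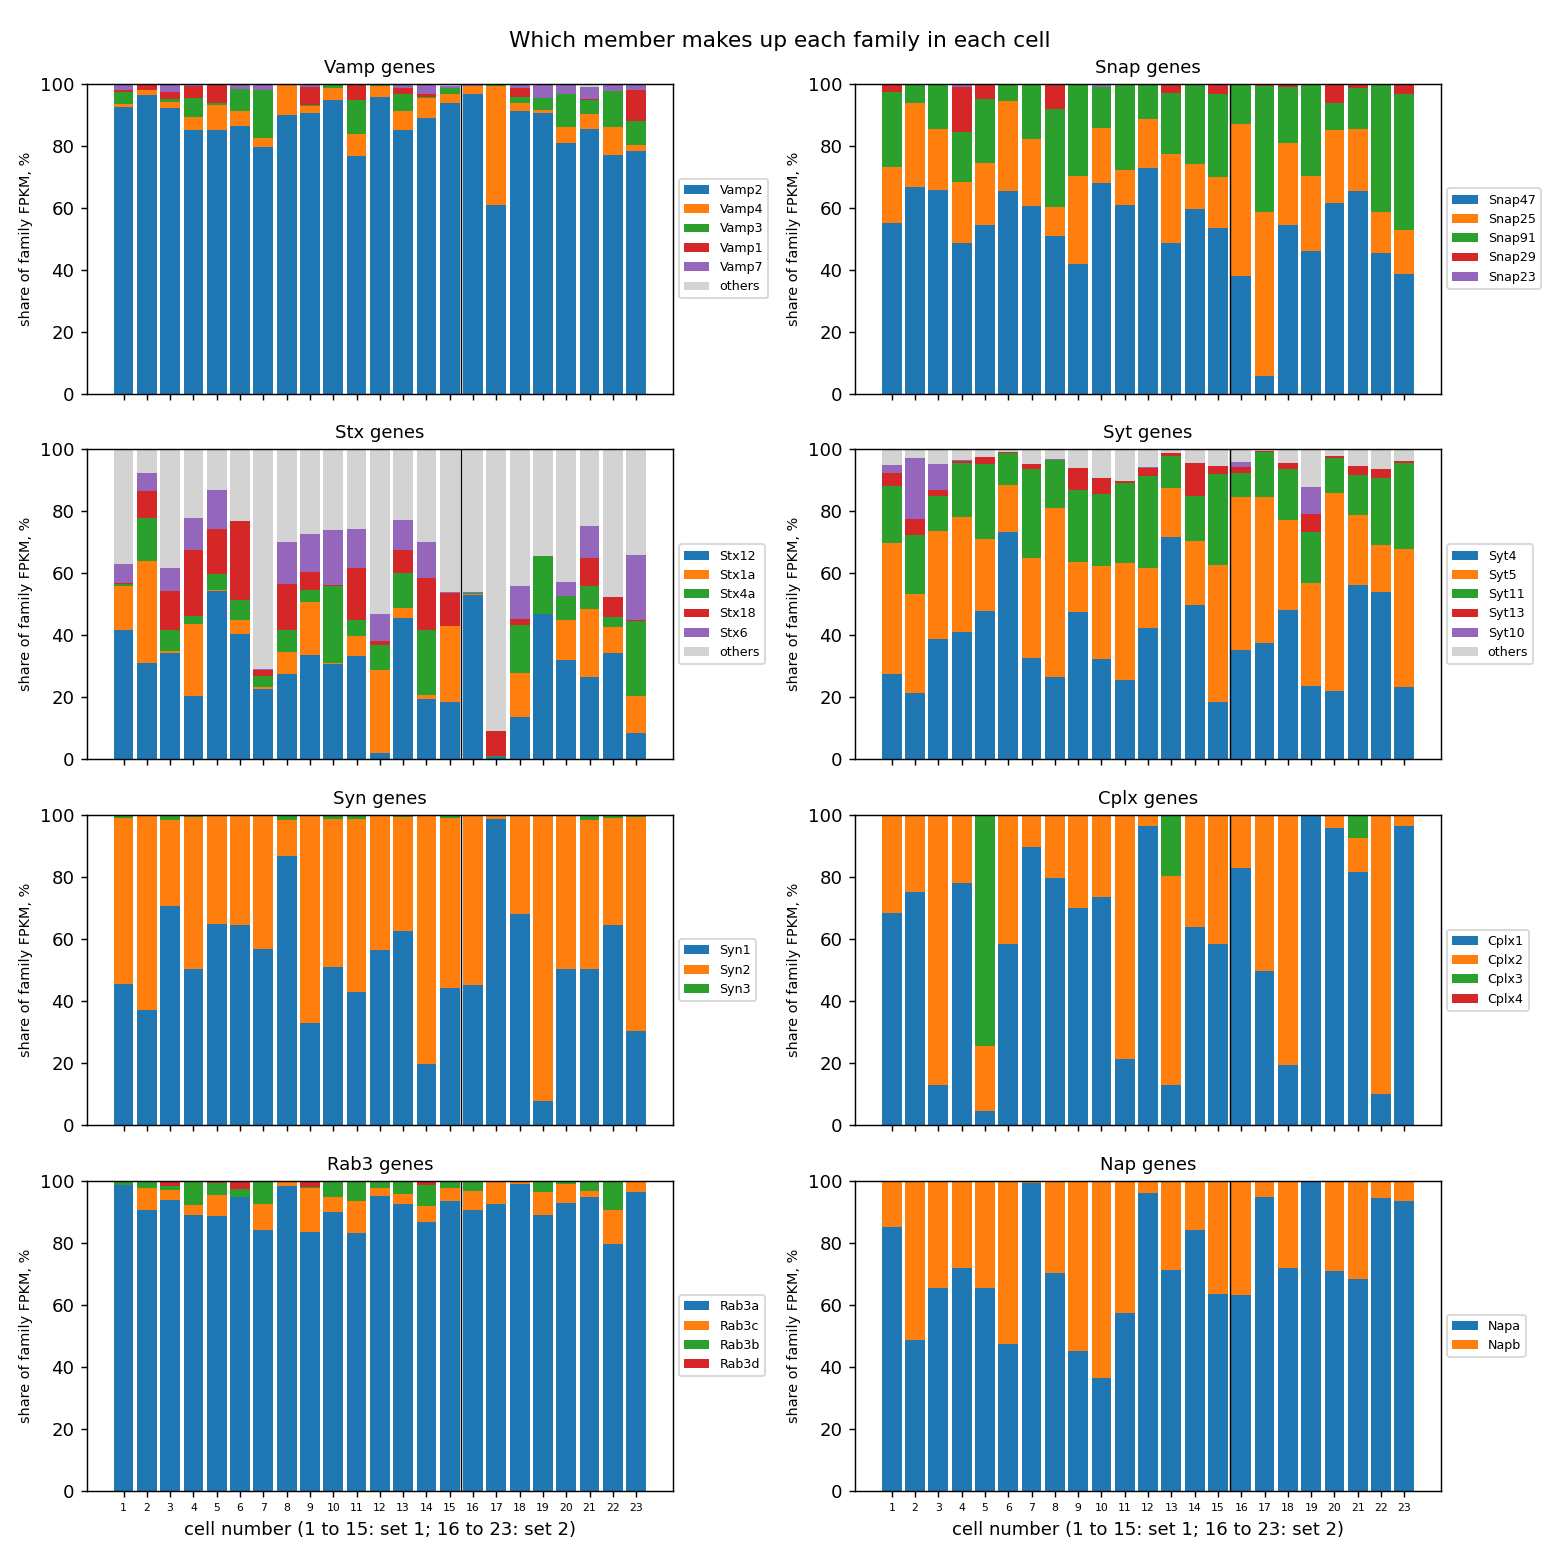
Share of each family's summed FPKM (y axis, percent) held by its members in each cell (x axis, 1 to 23, with a line between the sets), for 8 families. Vamp2 and Rab3a hold most of their family in every cell, Syn1 and Syn2 change places between cells, and no single syntaxin or synaptotagmin dominates throughout.

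Among the genes named Snap, Snap47 was higher than Snap25 in 21 of 23 cells. Snap25, the SNARE of synaptic release and the target of several botulinum toxins, lay between 8.00 FPKM in cell 14 and 51.2 FPKM in cell 9, with a median of 16.96. Snap47, a relative found mostly on intracellular membranes, lay between 1.64 FPKM in cell 17 and 80.3 FPKM in cell 2, with a median of 49.1. Snap91, the clathrin assembly protein AP180, shares the name but is no SNARE, and lay between 4.50 and 53.6 FPKM with a median of 14.7. All 3 were counted in every cell. Snap47 held 53.4% ± 14.2 of the 5 genes' sum (SD, 23 cells), and 67.6% when Snap91 was left out.

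The partner genes of one fusion complex were far apart in level. Vamp2 was above Snap25 in all 23 cells, and the ratio of their medians was 25.9. The ubiquitous paralog Snap23 was counted in 1 cell at 1.15 FPKM. Snap29, a SNARE of autophagosomes, was counted in 8 cells, with a highest level of 12.5 FPKM in cell 4. GENCODE places 11.6% of the exonic bases of Snap47 opposite exons of Jmjd4, and the counting strand is not given in the sources used here. Jmjd4 itself had a median of 0.263 and a highest level of 52.6 FPKM. How far reads of Jmjd4 enter the Snap47 level was not tested.

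Among 15 syntaxins, an endosomal one was most often the highest. Stx12 (syntaxin 12/13, of recycling endosomes) had a lowest level of 3.47 FPKM in cell 17, a median of 78.9 and a highest of 206 FPKM in cell 5, and was the highest syntaxin in 15 cells. Stx1a, a plasma membrane syntaxin of synapses, was counted in 17 cells, was listed at 0 in cell 19, and reached 128 FPKM in cell 2 with a median of 22.6.

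Other plasma membrane syntaxins ranged from common to rare. Stx4a, a widely expressed member used for constitutive release and dendritic exocytosis, was counted in 21 cells (lowest 0.130, median 21.7, highest 56.7 FPKM). Stx3, best known from epithelial cells and ribbon synapses, was counted in 10 cells with a highest level of 29.2 FPKM in cell 7. Stx2 was counted in 11 cells, but only in cell 17 did it pass 10 FPKM, at 51.2 FPKM against at most 8.75 FPKM elsewhere. Stx19 was counted in 4 cells with a highest level of 5.46 FPKM.

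All 8 measured syntaxins of endosomes, Golgi and endoplasmic reticulum were counted in at least 12 cells. Stx18, of the endoplasmic reticulum, had a median of 24.4 and a highest level of 116 FPKM in cell 6, was counted in 17 cells and was listed at 0 in 2. Stx6 and Stx16 act at the trans-Golgi network: Stx6 was counted in 16 cells (median 20.6, highest 50.6 FPKM) and Stx16 in 18 cells (median 11.9, highest 46.0 FPKM). Stx7, of late endosomes, was counted in 21 cells (median 12.3, highest 37.3 FPKM). These 4 were thus common but uneven, each under 1 FPKM in at least 2 cells. Stx5a, which links the endoplasmic reticulum to the Golgi, was counted in 14 cells with a median of 2.75 FPKM, yet reached 279 FPKM in cell 17 and 130 FPKM in cell 12. Stx17, of autophagosomes, and Stx8, of late endosomes, were counted in 12 cells each, with highest levels of 6.25 and 12.1 FPKM.

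The Munc13 genes were low. Unc13a, Munc13-1, the main priming factor of glutamatergic synapses, was counted in 20 cells with a lowest level of 0.222, a median of 6.49 and a highest of 19.4 FPKM. Unc13b (Munc13-2) was counted in 9 cells with a highest level of 10.6 FPKM in cell 7, and was the higher of the pair in 3 cells. At least 1 of Unc13a and Unc13b was counted in every cell but 8 and 17, that is in 21 cells or 91.3% (95% interval by the exact method of Clopper and Pearson, 72.0 to 98.9%). Such intervals cover counting of cells only, and reads carry no molecular identifiers.

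Of the Stxbp genes, Stxbp2 (Munc18-2, known from immune and epithelial secretion) was counted in 10 cells and passed 10 FPKM in cells 10, 14, 15 and 18, with 63.0 FPKM in cell 18. Stxbp5 (tomosyn, an inhibitor of SNARE assembly) was counted in 10 cells, and passed 10 FPKM in cell 17 at 60.9 FPKM, in cell 20 at 13.9 FPKM and in cell 8 at 12.0 FPKM. Stxbp4 was counted in 4 cells with a highest level of 1.74 FPKM. Stxbp2 and Stxbp5 thus had their highest level in set 2, in different cells. Stxbp6 (amisyn), Unc13c (Munc13-3, known from cerebellar granule cells) and Unc13d (Munc13-4, known from blood cells) were counted in no cell, with highest levels of 0.607, 0.197 and 0.339 FPKM. A count of 0 among 23 cells allows a share of up to 14.8% of cells (exact 95% interval).

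**Figure D3:**
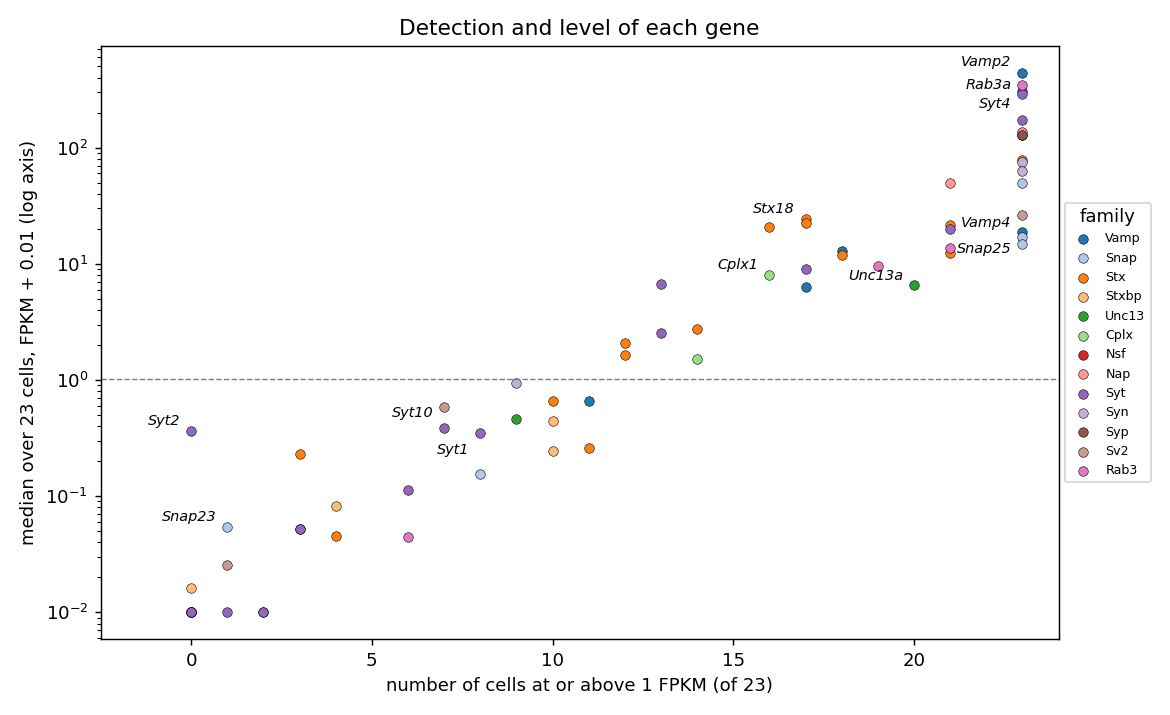
Number of cells at or above 1 FPKM (x axis, of 23) against the median level over 23 cells (y axis, FPKM + 0.01, log axis), 1 point per gene, coloured by family, for the genes reported here. The genes counted in all 23 cells span medians from 14.7 FPKM (Snap91) to 440 FPKM (Vamp2), and Unc13a and Cplx1 lie below all of them.

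The complexins were uneven across cells. Cplx1, a complexin of the brainstem and of many inhibitory neurons, was counted in 16 cells, with a lowest level of 0.0467 (cell 5), a median of 8.04 and a highest of 75.2 FPKM (cell 23). Cplx2, the main complexin of forebrain glutamatergic neurons, was counted in 14 cells with a median of 1.49, and passed 10 FPKM in cell 15 alone at 27.98 FPKM. Both were counted in 12 cells, Cplx1 without Cplx2 in 4, and Cplx2 without Cplx1 in cells 11 and 22. Neither was counted in 5 cells (3, 5, 6, 13 and 18), though Cplx2 in cell 13 was just under the threshold at 0.997 FPKM. At least 1 was thus counted in 18 of 23 cells (78.3%, exact interval 56.3 to 92.5%). The 5 cells with neither counted held 37 to 44 members at 1 FPKM or more, against a median of 40 over all cells. Cplx3 and Cplx4, the complexins of retinal ribbon synapses, were counted in no cell, and Cplx4 was the 1 member listed at 0 in every cell (1.41% of members, against 25.6% of all genes).

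The disassembly genes were abundant. Nsf, the ATPase that unwinds the SNARE complex, lay between 4.52 FPKM in cell 17 and 321 FPKM in cell 9 with a median of 129. Napa, the alpha SNAP adaptor, lay between 12.6 FPKM in cell 17 and 225 FPKM in cell 20 with a median of 136. Napb, the brain adaptor beta SNAP, was counted in 21 cells with a lowest level of 0.324, a median of 49.7 and a highest of 153 FPKM. Napa was the higher adaptor in 19 cells and held 72.3% ± 18.5 (SD, 23 cells) of their sum.

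The synaptotagmins counted in every cell were Syt4, Syt5 and Syt11. The genes grouped by symbol as fast calcium sensors (Syt1, Syt2 and Syt9) were low or absent in most cells. Syt4 (chromosome 18, 31437808 to 31447415, minus strand), a synaptotagmin of peptide vesicles whose first C2 domain does not bind calcium, lay between 113 FPKM in cell 15 and 1347 FPKM in cell 6, with a median of 305. Cell 13 was close to that highest level with 1303 FPKM. Syt5, a calcium-binding synaptotagmin also found on dense core vesicles (the names Syt5 and Syt9 have been exchanged in part of the literature), lay between 110.1 FPKM in cell 14 and 667 FPKM in cell 20, with a median of 289. Syt11, a relative of Syt4, lay between 78.0 FPKM in cell 14 and 272 FPKM in cell 2 with a median of 172. Syt4 was the highest synaptotagmin in 13 cells and Syt5 in the other 10. GENCODE places 14.5% of the exonic bases of Syt4 opposite a further antisense gene that is not analysed here.

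Of Syt1, Syt2 and Syt9, the 3 genes grouped by symbol as fast sensors, none was counted in 12 cells or more. Syt1 was counted in 8 cells, with a lowest level of 0.0174, a median of 0.341 and a highest of 2.72 FPKM in cell 15. The pan-neuronal marker Rbfox3 was about as low, with a median of 0.346 FPKM, and what sets either level was not tested. Syt2 was counted in no cell, with a highest level of 0.958 FPKM. Syt9 was counted in 3 cells, 2 of them above 10 FPKM: cell 19 with 13.4 FPKM and cell 7 with 13.2 FPKM. At least 1 of the 3 was counted in 11 of 23 cells (47.8%, exact interval 26.8 to 69.4%). By comparison, every cell held at least 1 of Syt3, Syt5, Syt6, Syt7 and Syt10, grouped as other calcium sensors, through Syt5. Which of Syt5 and Syt9 belongs with the fast sensors depends on the naming, given the exchange of names. With Syt5 in place of Syt9, a fast sensor would be counted in all 23 cells.

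**Figure D4:**
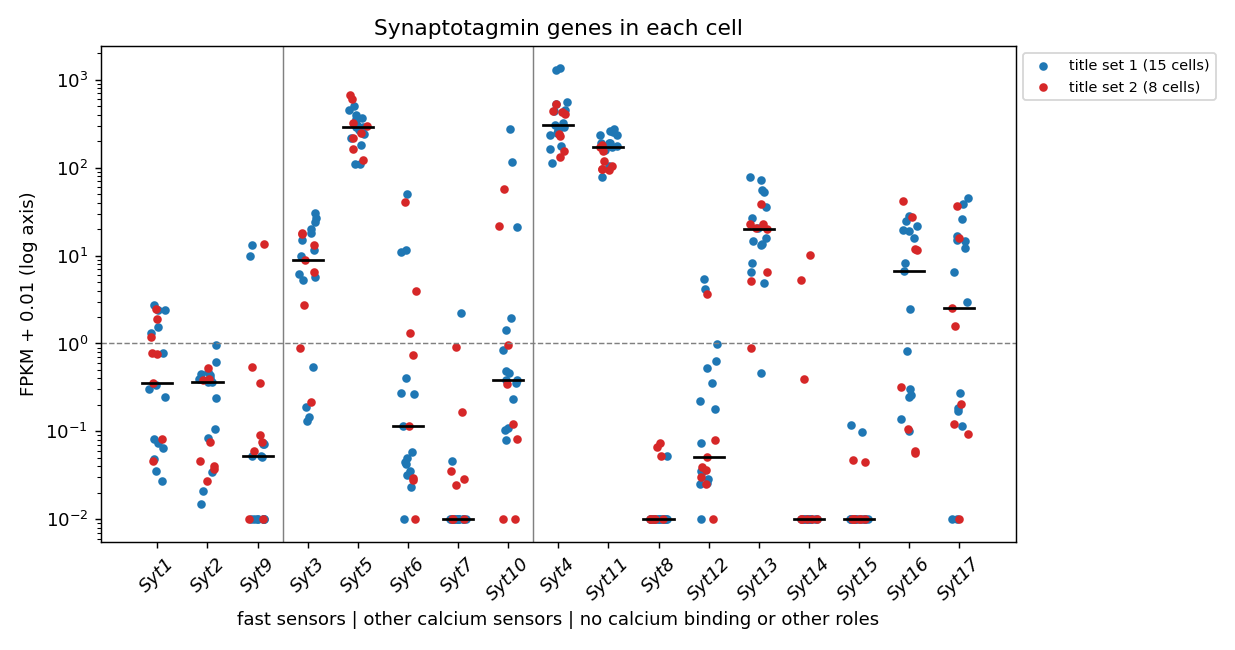
Level of each of 17 synaptotagmin genes (x axis, in 3 role groups set by symbol) in each cell (y axis, FPKM + 0.01, log axis), set 1 in blue and set 2 in red, with the median of 23 cells as a black bar and a dashed line at 1 FPKM. Syt4, Syt5 and Syt11 lie far above the dashed line in every cell, at 78.0 FPKM or more, while Syt10 and Syt6 are high in a handful of cells of both sets.

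Other synaptotagmins were counted in most cells at lower levels. Syt13, which lacks calcium binding, was counted in 21 cells (median 20.1, highest 78.8 FPKM). Syt3, a high-affinity calcium sensor, was counted in 17 cells (median 8.97, highest 30.6 FPKM). Syt16 and Syt17, for which no calcium binding is known, were counted in 13 cells each, with medians of 6.73 and 2.51 and highest levels of 42.0 and 45.8 FPKM. Syt16 and Syt17 thus passed 10 FPKM in some cells and lay near 0 in others. Syt7, the sensor of asynchronous release, was counted in cell 1 alone, at 2.20 FPKM. Syt12 was counted in 3 cells, with a highest level of 5.41 FPKM, and Syt14 in 2, cell 19 at 10.1 FPKM and cell 21 at 5.25 FPKM. Syt8 and Syt15 were counted in no cell.

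Syt10 was counted in 7 cells and Syt6 in 6, and both were high in a few of them. Syt10, a calcium sensor of growth factor vesicles, passed 10 FPKM in 5 cells, and these were cell 2 (279 FPKM), cell 3 (117 FPKM), cell 19 (57.9 FPKM), cell 16 (21.9 FPKM) and cell 1 (20.9 FPKM). The other 18 cells were at 1.92 FPKM or less. Syt6, a close relative, passed 10 FPKM in cell 3 (49.8 FPKM), cell 16 (40.3 FPKM), cell 9 (11.4 FPKM) and cell 1 (11.1 FPKM), with the other cells at 3.98 FPKM or less. Cells 1, 3 and 16 were in both groups, and both groups held cells of both sets. No such overlap between other genes was set beside this.

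Vesicle phosphoproteins and membrane proteins were present in every cell through 1 or a pair of genes per family. Synapsins tether vesicles to each other and to actin. Syn1 lay between 10.5 FPKM in cell 14 and 163 FPKM in cell 17 with a median of 75.1. Syn2 lay between 1.91 FPKM in cell 17 and 308 FPKM in cell 9 with a median of 62.3. Syn1 was the higher in 14 cells and Syn2 in 9, and Syn1 held 52.3% ± 20.2 of the synapsin sum (SD, 23 cells), from 7.72% to 98.8%. Syn3 was counted in 9 cells with a highest level of 2.69 FPKM.

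Syp, synaptophysin, an abundant vesicle protein that binds synaptobrevin, lay between 2.69 FPKM in cell 17 and 239 FPKM in cell 13 with a median of 128. Sv2a lay between 11.8 FPKM in cell 20 and 62.8 FPKM in cell 15 with a median of 26.2, and held 94.96% ± 7.04 of the Sv2 sum (SD, 23 cells). Sv2b, whose start-site sequence is given above beside that of Sv2a, reached 2.05 FPKM in cell 2. Sv2c, a paralog known from the basal ganglia and brainstem, was counted in 7 cells, with a highest level of 5.96 FPKM.

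Rab3a, the main Rab of synaptic vesicles, was the steadiest of the 18 genes counted in every cell. It lay between 210.5 FPKM in cell 14 and 595 FPKM in cell 17 with a median of 343, a ratio of 2.83 between the highest and lowest cell. It held 91.2% ± 5.18 of the Rab3 sum (SD, 23 cells). Rab3c was counted in 21 cells (median 13.6, highest 58.9 FPKM) and Rab3b, a paralog found in neurons and endocrine cells, in 19 (median 9.54, highest 42.9 FPKM). Rab3c was the higher of these in 16 cells. Rab3b shares 9.00% of its exonic bases with the antisense gene 8030443G20Rik, whose median was 6.80 FPKM. Over the 23 cells, which share 2 title sets and differ in depth, Spearman's rho between their levels was 0.65, and how far reads of the antisense gene enter the Rab3b level was not tested. Rab3d, of exocrine and endocrine granules, was counted in 6 cells of set 1 and in none of set 2, at 8.98 FPKM or less; the highest value in set 2 was 0.0492 FPKM.

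A set of core genes was counted in full in most cells. The set asked for at least 1 of Vamp1 and Vamp2, 1 of Napa and Napb, 1 of Unc13a and Unc13b and 1 of Cplx1 and Cplx2, with Snap25 and Nsf, which were counted in every cell. It was complete in 16 of 23 cells (69.6%, exact interval 47.1 to 86.8%). The 7 other cells were 3, 5, 6, 8, 13, 17 and 18, and in each either the complexins or the Munc13 genes were not counted. In cell 13, Cplx2 was just under the threshold at 0.997 FPKM. Synaptobrevin and SNAP adaptors were each covered in 23 of 23 cells (100%, exact interval 85.2 to 100%).

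Cells differed in how many members were counted, from 28 in cell 17 to 44 in cells 18, 21 and 22, with a median of 40. The median was 41 in set 1 and 39 in set 2. Cells with more genes counted held more members (Spearman's rho 0.73 and Pearson's r 0.85 over 23 cells, which share 2 title sets and differ in depth; 0.69 and 0.71 without cell 17). With relative depth the rho was -0.20. The summed level of the members was lowest in cell 14 (1887 FPKM) and highest in cell 2 (4575 FPKM), with a median of 3046 FPKM. As a share of all FPKM it lay between 0.328% (cell 17) and 0.923% (cell 9).

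**Figure D5:**
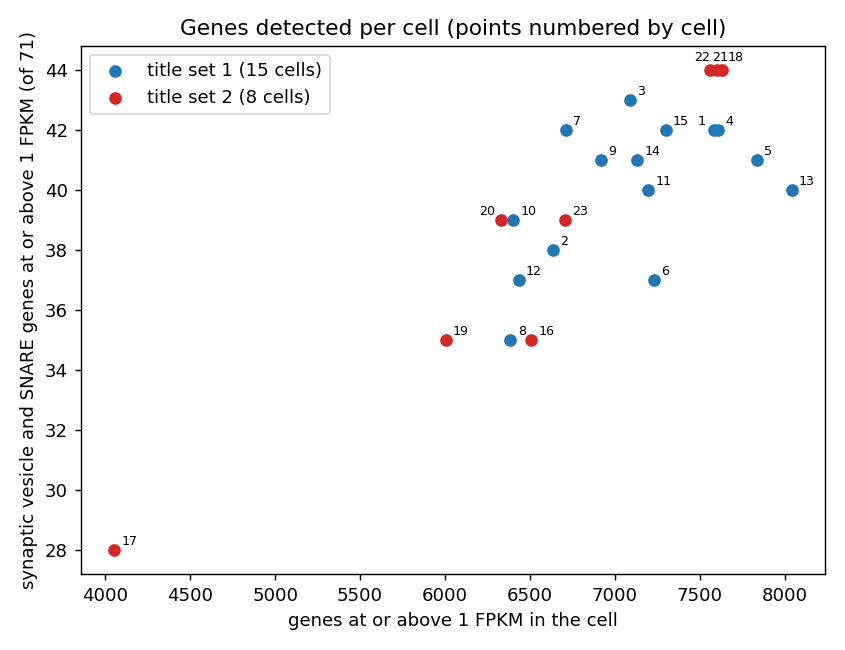
Number of genes at or above 1 FPKM (x axis) against the number of the 71 synaptic vesicle and SNARE genes at or above 1 FPKM (y axis), 1 numbered point per cell, set 1 in blue and set 2 in red. Cell 17 stands apart with 4054 genes and 28 members, and the other cells hold 35 to 44 members.

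Cell 17, which had the fewest genes, was extreme in both directions. Of the 18 genes counted in every cell it was the lowest cell for 8 (Napa, Nsf, Snap47, Stx12, Syn2, Syp and Vamp2 among them) and the highest for 4 (Rab3a, Syn1 and Vamp4 among them). Cell 14, the shallowest library, was the lowest for 6, and cell 9 was the highest for 5. The same counts over all 1685 genes counted in every cell were not made, so these extremes cannot be read as particular to the members. The ratio of the highest to the lowest cell had a median of 14.6 over these 18 genes, against 22.9 over all 1685 genes counted in every cell, and a median of 7.31 over the 18 genes without cell 17. The ratio for Syp was 88.7 with cell 17 and 6.85 without it, for Nsf 71.01 and 8.43, and for Snap47 48.9 and 4.22. For Syn2 it was 161 with cell 17 and 44.1 without it, the highest of the 18 genes in both cases.

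Between the title sets few members stood apart. Among the 57 members counted in at least 3 cells, 1 (Stx18, 1.75%) differed by more than 2 in mean log2(FPKM + 1), against 1.74% of the 11697 genes with the same minimum. Stx18 averaged 4.36 in set 1 and 2.19 in set 2, a difference of 2.17, and was counted in 13 of 15 cells of set 1 and 4 of 8 cells of set 2. Stx18 shares 12.5% of its exonic bases with Nsg1, a protein-coding gene on the opposite strand with a median of 273 FPKM, and 19.8% with Gm42858. Over the 23 cells, which share 2 title sets and differ in depth, Spearman's rho between Stx18 and Nsg1 levels was 0.03. How far reads of Nsg1 or Gm42858 enter the Stx18 level was not tested. In set 1, 5 members were higher by more than 1 (8.77%, against 11.5% of all genes), which besides Stx18 were Stx6 (1.61), Napb (1.33), Nsf (1.08) and Rab3d (1.00). In set 1, 2 members were lower by more than 1 (3.51%, against 4.92% of all genes), Vamp7 (-1.06) and Stx2 (-1.03). The ranges of the sets overlapped for all 57 members. No share over all genes was set beside this, so it cannot be read as particular to the members. The median difference was 0.21 for members and 0.12 for all genes.

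Genes that work beside these families were read against the 27.8% of all genes counted in at least 12 cells and the 7.2% counted in all. Of 10 active zone genes, 9 were counted in at least 12 cells and none in all; the scaffold Pclo was counted in 22 (median 7.35 FPKM), Rims3 in 17 (median 13.1 FPKM) and Ppfia2 in 16 (median 3.19 FPKM). Of 13 genes of vesicle endocytosis, 12 were counted in at least 12 cells and 8 in all, led by the clathrin light chains Clta and Cltb and the adaptor Ap2m1, with medians of 297, 230.1 and 220.1 FPKM. The median of the genes' median levels was 39.9 FPKM for the endocytosis list and 1.79 FPKM for the active zone list, and single genes overlapped between the lists. Of 14 other vesicle membrane genes, 13 were counted in at least 12 cells and 8 in all, led by the proton pump subunits Atp6v0c (median 584 FPKM) and Atp6v1b2 (median 221 FPKM) and by synaptogyrin 3, Syngr3 (median 264 FPKM). The exception was the inhibitory transmitter transporter Slc32a1, counted in 2 cells.

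Of 11 genes for SNAREs or SNAP adaptors of intracellular membranes that are not members, 10 were counted in at least 12 cells and 2 in all. These 2 were Vti1b (median 192 FPKM) and Use1 (median 121 FPKM), followed by the SNAP adaptor Napg in 22 cells (median 40.7 FPKM). Of 10 genes of dense core vesicle release, 3 were counted in at least 12 cells, a share near that of all genes, and none in all: Cadps in 18 (median 11.9 FPKM), Rims2 in 14 (median 3.54 FPKM) and Doc2a in 13 (median 4.35 FPKM). Of the synucleins, presynaptic proteins that bind vesicle membranes, Sncb was counted in 22 cells (median 18.3 FPKM) and Sncg in 16 (median 8.47 FPKM). Sncg ranged from 0 in 6 cells to 1483 FPKM in cell 6, a wider range than that of Sncb, whose highest level was 47.8 FPKM.

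Gene length was set beside level. The median locus length was 28.1 kb for the 18 members counted in every cell, 39.6 kb for those in 12 to 22 cells, 59.5 kb for those in 1 to 11 cells and 14.5 kb for those in no cell. Across the 71 genes, Spearman's rho between locus length and median FPKM was -0.08, as a description across genes. Between the length of the longest transcript and median FPKM it was -0.17, over 70 genes. Of 70 members with a GENCODE entry, 19 share exonic bases with another gene, and none shares 20% or more with any single other gene. No share over all genes was set beside this count. Stx18 shares bases with both Gm42858 (19.8%) and Nsg1 (12.5%), and its combined share was not computed. The largest shares after that were of Syt12 with A930001C03Rik (17.2%) and of Syp with Gm14703 (16.8%). How far reads of these genes enter the Syt12 and Syp levels was not tested.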

How the data were processed

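Each sample is 1 GFP-positive neuron taken by hand from papain-digested arcuate slices. Its RNA was amplified by the SmartSeq2 method and sequenced from a NuGen Ovation Rapid library, per the labels' protocols. Per the submitters' processing notes, CASAVA 1.8, TopHat and Cufflinks were run against mm10. The sources used here do not give the TopHat and Cufflinks versions, the gene annotation or strand handling. FPKM per gene and cell was deposited by the authors as a single table, and 0 of its per-cell columns were left unused. Amplified copies count as reads, and FPKM of one gene depends on every other in the cell.

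The table had 23896 rows. A block of 12 leftover spreadsheet rows and 286 identical copies were dropped, 27 genes with names turned into dates were kept unnamed, and rows of 1 symbol were summed, giving 23400 genes. Deposited starts count from 0 (9299 of 21591 genes start 1 lower than RefSeq with an equal end, 263 agree in both), so coordinates are given from 1, with strand and exons from GENCODE. Python 3.11.15, pandas 2.3.3, numpy 2.4.6, scipy 1.17.1 and matplotlib 3.10.9 were used. The counting threshold was 1 FPKM and the pseudocount 1 FPKM on the log2 scale. Family shares are each cell's member FPKM over the family sum, averaged over cells. Relative depth came from the step between low values (under 0.5 FPKM) and was checked on simulated data. No test was run, since there is 1 group and a cell is not a replicate.

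Members and lists were chosen with earlier results of these data known. In each family the text names every member at 1 FPKM in at least 12 cells, the member with the highest median and those in no cell; others are given by counts and ranges, and those singled out for 1 or a few cells were chosen after their values were seen. Other lists name the 3 members in most cells. Alternatives were thresholds of 0.1, 10 and above 0 FPKM, each cell rescaled to 1000000, each set alone, pooled shares, other pseudocounts and cutoffs, no filter, repeated rows not summed, and cell 11, cell 17 or Snap91 left out. No protein sequence was used here. Results on some genes are not reported here, though counts over all members include them.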

Additional observations from a re-analysis of the deposited data

How the results depend on the processing

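With any value above 0 in place of 1 FPKM, 61 members (39 at 1 FPKM) were counted in at least 12 cells, 41 (18 at 1 FPKM) in all cells and 1 (9 at 1 FPKM) in no cell. At 10 FPKM, 9 were counted in all cells and 22 in no cell, and at 0.1 FPKM, 2 in no cell. Widely counted genes of low level moved most: at 10 FPKM, Cplx1 was counted in 10 cells, Unc13a in 6 and Cplx2 in 1. Between the sets, 4 members passed a difference of 2 with a pseudocount of 0.1 FPKM and 7 passed a cutoff of 1, against 1 as reported. Counts under the other settings were within 1.5 times: members in at least 12 cells, or the same share of a set, were 40 in set 1 alone, 43 in set 2 alone, 43 with each cell rescaled to 1000000 and 40 without cell 17. The mean share of each family's leading gene moved by less than 1 SD between cells under the settings tried. That SD is wide for some families, so shares could still shift. For Cplx1 it was 31.6, and the share was 60.8% as reported and 79.9% when pooled over all cells. The Snap47 share was 58.2% in set 1 alone and 44.4% in set 2 alone. No paired analysis was possible because there is 1 group and its cells carry no pairing. Levels near 1 FPKM limit the counts of the complexins, the Munc13 genes and Syt1, Syt2 and Syt9, and absolute depth is unknown. The title sets cannot be told apart from mouse, day or cell type, and 23 cells leave wide intervals on every share.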

Other observations

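Across the 23 cells, levels of member pairs were compared by rank for the 39 members counted in at least 12 cells, which gives 741 pairs. The cells share 2 title sets and differ in depth, and no test was made. The median Spearman rho was 0.07 over member pairs and 0.03 over pairs of all 6495 genes counted as widely. A rho of 0.5 or more was found for 4.86% of member pairs, against 1.43% of all pairs, and a rho of -0.5 or less for 0.81% against 0.776%. Among the highest were Syt5 with Vamp2 at 0.62 (0.59 within set 1 and 0.64 within set 2), Napb with Syp at 0.61 (0.55 and 0.62) and Snap25 with Vamp2 at 0.61 (0.56 and 0.60). The lowest rho was -0.67, between Cplx1 and Syt4 (-0.54 within set 1 and -0.86 within set 2), and it was -0.63 with each cell rescaled to the same sum. Cells 6 and 13, which had the highest Syt4 levels (1347 and 1303 FPKM), were among the 5 cells with neither Cplx1 nor Cplx2 counted. In cell 13, however, Cplx2 was just under the threshold at 0.997 FPKM. These pairs were picked from the 741 after their values were seen.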
